A study of Rattus with 6 samples.

Results

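Serum response factor (SRF), its 3 coactivators of the myocardin family and 6 actin cytoskeleton genes that the family is known to switch on were followed across cultures labelled as vascular smooth muscle cells. The 10 genes, Srf, Myocd, Mkl1, Mkl2, Tpm1, Tpm2, Tpm4, Cald1, Vcl and Smtn, were taken by gene name from a deposited table of 54012 genes, and each name had 1 row. A mean of at least 1 FPKM (fragments scaled by gene length and library size, as deposited) over the 6 libraries was reached by 9 of the 10 genes and by 12080 genes in all. Myocd was below that level. The libraries were 3 labelled si-CDCP1, made after siRNA against CDCP1 (genotype label CDCP1 knockdown), and 3 labelled si-NC, with a control siRNA (genotype label WT). Every culture was a primary culture from aorta and received angiotensin II (Ang II), the pressor peptide of the renin-angiotensin system. No culture without Ang II was analysed here. The dose and duration of Ang II are not given in the sources read for this work.

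SRF is a transcription factor that binds short AT-rich elements called CArG boxes in the promoters of muscle, cytoskeletal and growth-response genes. Myocardin, which is restricted to smooth and cardiac muscle, and the myocardin-related transcription factors (encoded by Mkl1 and Mkl2, now named Mrtfa and Mrtfb) bind SRF and drive the contractile and cytoskeletal targets. The myocardin-related factors bind monomeric actin and enter the nucleus when actin polymerises, so that the pathway reads the state of the actin cytoskeleton. Ang II is among the stimuli known to engage this pathway in smooth muscle.

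Reads assigned to genes numbered 16050517 to 19771638 per library. The organism label is rat, whereas the table lists mouse genes on mm10. In the rat RefSeq gene table (GRCr8) 8 of the 10 names are current symbols, and Mkl1 and Mkl2 are listed as older names of Mrtfa and Mrtfb. Whether rat reads were aligned to mouse genes was not tested, so a level compared between genes may carry sequence differences between the species. The library si-CDCP1 replicate 3 stood apart, with Pearson correlations on the log2(FPKM + 1) scale of 0.979 to 0.983 with the other 5 libraries, against 0.988 to 0.991 among those 5. The differences of the members are therefore given with and without it. A different library, si-CDCP1 replicate 1, stood apart in gene length, with a Spearman correlation across genes of -0.31 between its deviation from the mean of the libraries and gene length, against -0.04 to 0.09 in the other 5. The siRNA target Cdcp1 had 0, 5 and 0 reads in si-CDCP1 replicates 1, 2 and 3, against 2, 2 and 1 reads in si-NC replicates 1, 2 and 3, so the knockdown could not be checked. Of 10 markers of mature smooth muscle, Tagln, Cnn1, Actg2, Myh11 and Pln were below 0.5 FPKM in every library, and these markers do not bear out the label. The 10 markers summed to between 45.2 and 76.8 FPKM in si-CDCP1 and between 47.0 and 50.3 FPKM in si-NC, mostly Acta2. Hspb6, also on that list, was at 7.84 to 11.1 FPKM over the 6 libraries. Of 8 fibroblast markers 5 were at or above a mean of 1 FPKM, while Fap, Thy1 and Lum were below 0.5 FPKM in every library. The list summed to between 384 and 439.9 FPKM in si-CDCP1 and between 380.1 and 421 FPKM in si-NC, mostly Col1a1 and Col1a2. All 6 endothelial and all 7 striated muscle markers were below 0.5 FPKM in every library, and 2 of 6 macrophage and 1 of 5 pericyte markers were tested.

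No gene of the SRF group differed between si-CDCP1 and si-NC beyond the threshold of the main test, a BH-adjusted p of 0.05 over all 12080 genes in limma's moderated test on log2(FPKM + 1). That test called 0 of all genes (0.0%), with 1722 genes (14.3%) at an unadjusted p under 0.05. At an unadjusted p under 0.05 there were 2 of the 9 tested members, Tpm1 on the higher side, with 8.94% of all tested genes, and Vcl on the lower side, with 5.31%. Without si-CDCP1 replicate 3 only Tpm1 was at that level, on the higher side, with 10.8% of all tested genes, and without si-NC replicate 1 no member was. Tpm1 was also the only member with every si-CDCP1 library above every si-NC library, a pattern seen in 14.4% of all tested genes, and Vcl the only member with every si-CDCP1 library below, a pattern seen in 10.6%. Both shares are near those of the members, 1 of 9 each. No label ties the replicates to different animals or isolations, and p-values therefore cover library-to-library spread, which may be technical. In bulk cultures fewer cells that express a gene and less RNA per cell cannot be told apart.

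**Figure D1:**
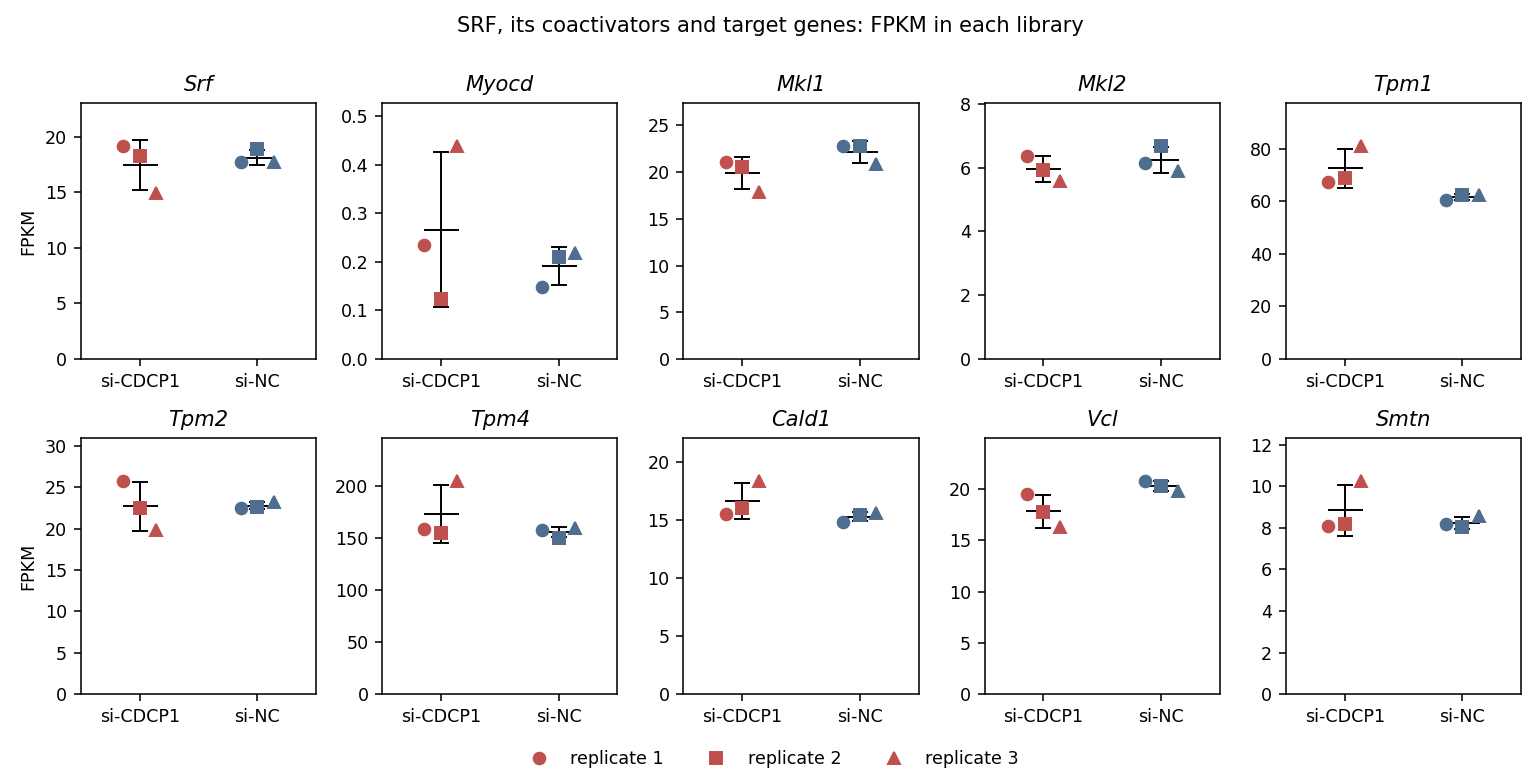
FPKM of the 10 genes in each library, si-CDCP1 left and si-NC right, with symbols for replicate numbers, horizontal lines for group means and bars for SD (n = 3 each); each vertical axis starts at 0. The triangle of si-CDCP1 replicate 3 is the highest or the lowest of the 6 libraries in every panel, and in Tpm1 and Vcl the groups do not overlap.

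The transcription factor itself, Srf (ENSMUSG00000015605, chromosome 17, 46546839 to 46556162, minus strand), was at 19.2, 18.3 and 14.9 FPKM in si-CDCP1 replicates 1, 2 and 3, against 17.7, 18.9 and 17.7 FPKM in si-NC replicates 1, 2 and 3. The groups overlapped, with replicate 1 of si-CDCP1 just above and replicate 3 well below all si-NC libraries. The mean was 17.5 ± 2.25 FPKM in si-CDCP1 and 18.1 ± 0.685 FPKM in si-NC (SD, n = 3 each). The log2 difference, si-CDCP1 minus si-NC, was -0.06 with a 95% interval from -0.27 to 0.16 (limma, BH-adjusted p = 0.793). Without si-CDCP1 replicate 3 it was 0.05, with an interval from -0.07 to 0.16.

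Of the coactivators, Mkl1, which encodes myocardin-related transcription factor A (ENSMUSG00000042292, chromosome 15, 81012281 to 81190757, minus strand), was at 21.1, 20.6 and 17.9 FPKM in si-CDCP1 and 22.8, 22.8 and 20.8 FPKM in si-NC. Replicate 3 of si-NC lay between the first 2 si-CDCP1 libraries, so the groups overlapped by that 1 library. The log2 difference was -0.15 (95% interval -0.33 to 0.02, limma BH-adjusted p = 0.389), and without si-CDCP1 replicate 3 it was -0.08 (interval -0.21 to 0.04, adjusted p = 0.480). Mkl2, which encodes the related factor B (ENSMUSG00000009569, chromosome 16, 13256481 to 13417529, plus strand), was at 6.37, 5.92 and 5.59 FPKM in si-CDCP1 and 6.14, 6.69 and 5.91 FPKM in si-NC. The Mkl2 groups overlapped, with a log2 difference of -0.06 (95% interval -0.23 to 0.11) and of -0.02 without si-CDCP1 replicate 3. Within a library the level of Mkl1 per length was 3.31, 3.48 and 3.21 times that of Mkl2 in si-CDCP1 and 3.71, 3.41 and 3.53 times in si-NC. This ratio, which does not depend on the scaling between libraries, differed by -0.09 on the log2 scale (exact two-sided permutation test, p = 0.2; the smallest p that 3 against 3 libraries allow is 0.1). It remained below 0, at -0.06, without si-CDCP1 replicate 3.

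Myocd, which encodes myocardin itself (ENSMUSG00000020542, chromosome 11, 65176561 to 65269989, minus strand), was the least abundant of the 10 genes. It was at 0.234, 0.124 and 0.439 FPKM in si-CDCP1, on 26, 13 and 44 reads, and at 0.147, 0.210 and 0.218 FPKM in si-NC, on 19, 22 and 25 reads. These values lie above the 0.0232 to 0.0299 FPKM that 3 reads stand for in this gene. The high value in si-CDCP1 replicate 3 set the group difference. The ratio of read shares, si-CDCP1 over si-NC, was 1.39 with all libraries (exact binomial 95% interval 0.992 to 1.95, counting error only) and 0.954 without si-CDCP1 replicate 3 (interval 0.625 to 1.44). An exact two-sided permutation test of the FPKM means gave p = 0.6.

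Tropomyosins are coiled-coil proteins that lie along actin filaments and decide which motors and severing proteins reach them; each tropomyosin gene gives both muscle and non-muscle isoforms or only the latter, and isoforms were not resolved in this table. Tpm1 (ENSMUSG00000032366, chromosome 9, 67022590 to 67049406, minus strand) was at 67.4, 68.9 and 81.2 FPKM in si-CDCP1, against 60.5, 62.3 and 62.3 FPKM in si-NC. The lowest si-CDCP1 library was above the highest si-NC library, and this held without si-CDCP1 replicate 3, as it did in 19.9% of all tested genes. The log2 difference was 0.22 (SE 0.075, 95% interval 0.05 to 0.40, limma unadjusted p = 0.0200, BH-adjusted p = 0.305). Without si-CDCP1 replicate 3 it was 0.14 (SE 0.033, adjusted p = 0.139). Limma voom on the reads recovered from FPKM called Tpm1 higher without that library (BH-adjusted p = 0.0313; 2.4% of all genes were called higher there), and so did limma's library weights on all 6 libraries (adjusted p = 0.0407; 4.62% of genes called higher). Over the 20 alternative settings the log2 difference of Tpm1 lay between 0.14 and 0.27 and the adjusted p between 0.0313 and 0.645.

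Tpm4, a non-muscle tropomyosin gene and the most abundant member (ENSMUSG00000031799, chromosome 8, 72134975 to 72153142, plus strand), was at 159, 155 and 205 FPKM in si-CDCP1, against 157, 150.1 and 159.9 FPKM in si-NC. The first 2 si-CDCP1 libraries lay within the si-NC range and the third above it. The log2 difference of 0.14 (95% interval -0.11 to 0.39, limma BH-adjusted p = 0.545) was 0.01 (interval -0.08 to 0.11) without si-CDCP1 replicate 3. Tpm2, the beta-tropomyosin of muscle and stress fibres (ENSMUSG00000028464, chromosome 4, 43514711 to 43523765, minus strand), went the other way in that library. It was at 25.8, 22.5 and 19.9 FPKM in si-CDCP1, against 22.5, 22.6 and 23.3 FPKM in si-NC, so the si-CDCP1 libraries lay on both sides of the si-NC range. Its log2 difference was -0.01 (95% interval -0.22 to 0.20) and 0.08 without si-CDCP1 replicate 3. Tpm3, the fourth tropomyosin gene, was at 37.9, 38.6 and 40.5 FPKM in si-CDCP1 and 40.9, 40.7 and 40.8 FPKM in si-NC, a log2 difference of -0.06 (SE 0.046, limma BH-adjusted p = 0.526) and of -0.09 without si-CDCP1 replicate 3. Its values are uncertain, since the near-identical copy Tpm3-rs7, listed at 11.7, 11.0 and 12.0 FPKM in si-CDCP1 and 11.0, 12.2 and 11.9 FPKM in si-NC, could share its reads.

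The 4 tropomyosin genes summed to 307 ± 34.1 FPKM in si-CDCP1 and 281 ± 5.30 FPKM in si-NC (SD, n = 3 each), a difference of 26.2 FPKM (exact two-sided permutation test, p = 0.2). Without si-CDCP1 replicate 3, at 347 FPKM the highest library, the si-CDCP1 mean was 288 FPKM and the difference 6.57 FPKM (exact permutation p = 0.4). Of the sum Tpm1 made up 23.2%, 24.2% and 23.4% in si-CDCP1, against 21.5%, 22.6% and 21.8% in si-NC, a difference of 1.66 percentage points (exact two-sided permutation test, p = 0.1, the smallest that 3 against 3 libraries allow; 0.2 adjusted over the 4 shares). Without si-CDCP1 replicate 3 the Tpm1 difference was 1.75 points. The share of Tpm3 was lower, at 13.1%, 13.6% and 11.7% in si-CDCP1 and 14.5%, 14.8% and 14.2% in si-NC (exact permutation p = 0.1, adjusted 0.2), by -1.74 points with all libraries and -1.21 points without si-CDCP1 replicate 3. Shares of the same sum depend on each other, so the Tpm1 and Tpm3 differences are not separate results. In si-CDCP1 replicate 3, where its share was lowest, Tpm3 itself was at 40.5 FPKM, near the 40.7 to 40.9 FPKM of si-NC. The Tpm4 share was 54.8%, 54.4% and 59.1% in si-CDCP1 and 56.0%, 54.4% and 55.9% in si-NC. The Tpm2 share was 8.90%, 7.91% and 5.73% in si-CDCP1 and 8.01%, 8.19% and 8.14% in si-NC. In both of these si-CDCP1 replicate 3 held the most distant value, and the differences changed sign without it.

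**Figure D2:**
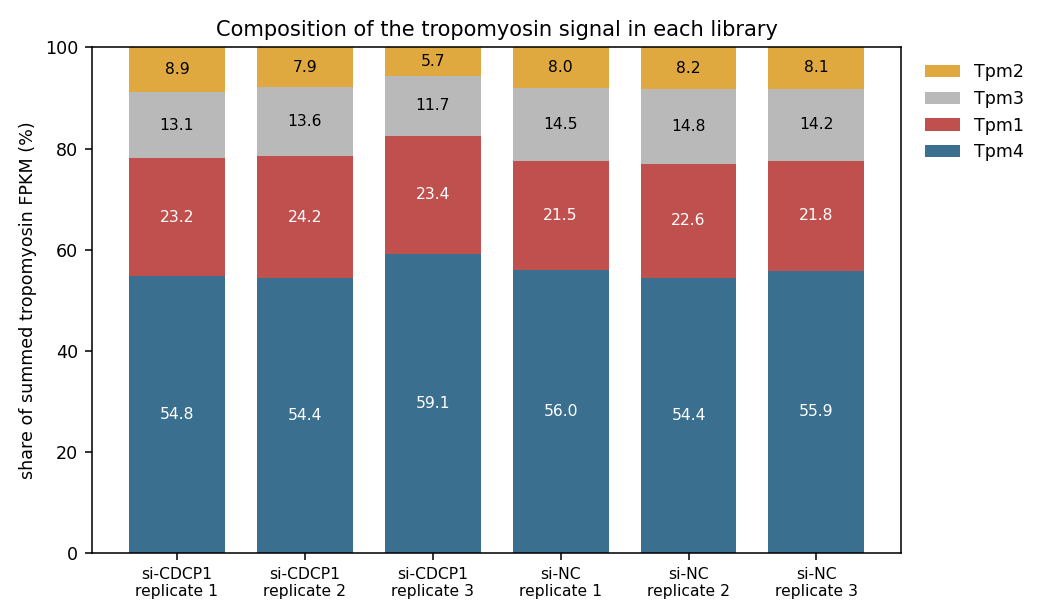
Share of each tropomyosin gene in the summed FPKM of Tpm1, Tpm2, Tpm3 and Tpm4 (vertical axis, %) in the 6 libraries, si-CDCP1 left and si-NC right; numbers are the shares. The Tpm1 band is at least 23.2% in each si-CDCP1 library and at most 22.6% in each si-NC library, and si-CDCP1 replicate 3 has the widest Tpm4 band and the narrowest Tpm2 band.

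Vcl encodes vinculin, which links talin and cadherin complexes to actin at adhesions. The gene (ENSMUSG00000021823, chromosome 14, 20929398 to 21033676, plus strand) was at 19.5, 17.8 and 16.2 FPKM in si-CDCP1, against 20.8, 20.3 and 19.8 FPKM in si-NC. All si-CDCP1 libraries lay below all si-NC libraries, the nearest pair at 19.5 and 19.8 FPKM; without si-CDCP1 replicate 3 such an order was seen in 16.2% of all tested genes. The log2 difference was -0.18 (SE 0.070, 95% interval -0.34 to -0.01, limma unadjusted p = 0.0374, BH-adjusted p = 0.333). Without si-CDCP1 replicate 3 it was -0.12 (interval -0.24 to 0.01, adjusted p = 0.320). With each library's trend with gene length removed, Vcl was at -0.18 with an unadjusted limma p of 0.0610. Limma's library weights on all 6 libraries called Vcl lower (BH-adjusted p = 0.0497; 2.54% of genes called lower), and over the 20 settings the log2 difference lay between -0.24 and -0.10 and the adjusted p between 0.0497 and 0.651.

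Cald1 encodes caldesmon, an actin-binding inhibitor of the myosin motor. The gene (ENSMUSG00000029761, chromosome 6, 34598500 to 34775473, plus strand) was at 15.5, 16.0 and 18.4 FPKM in si-CDCP1, against 14.8, 15.4 and 15.6 FPKM in si-NC. The groups overlapped through si-CDCP1 replicate 1. The log2 difference of 0.11 (95% interval -0.05 to 0.28, limma BH-adjusted p = 0.474) was 0.04 without si-CDCP1 replicate 3. Smtn encodes smoothelin, an actin-binding protein of contractile smooth muscle (ENSMUSG00000020439, chromosome 11, 3517523 to 3540612, minus strand), and was at 8.10, 8.17 and 10.3 FPKM in si-CDCP1, against 8.17, 8.02 and 8.58 FPKM in si-NC. Only si-CDCP1 replicate 3 stood outside the si-NC range on the higher side. The log2 difference of Smtn was 0.08 (95% interval -0.13 to 0.30) with all libraries and -0.02 (interval -0.14 to 0.10) without that library.

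**Figure D3:**
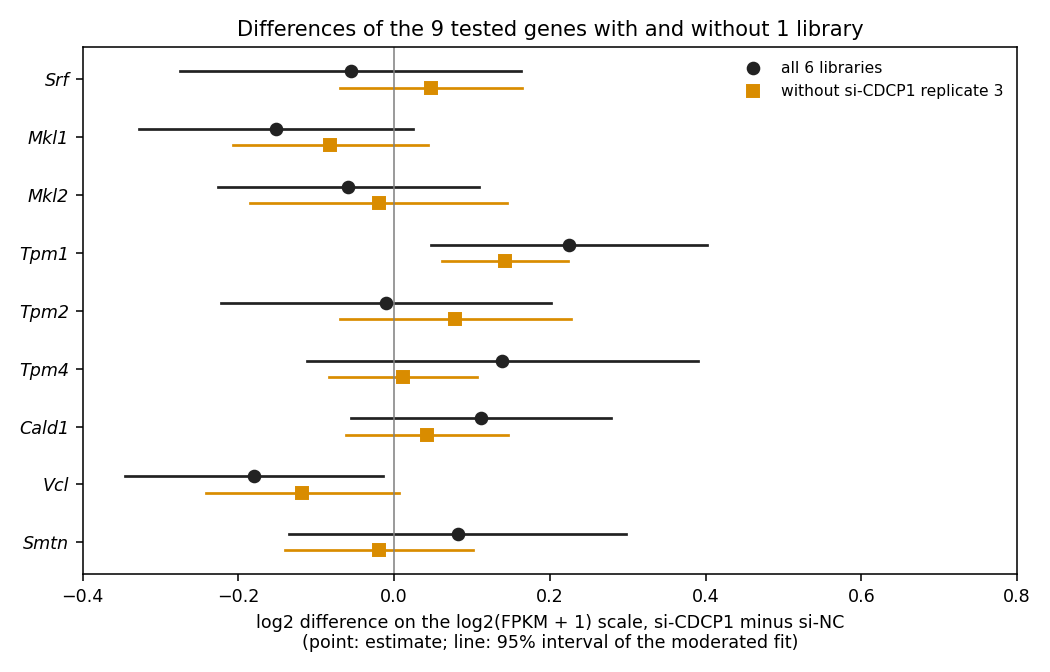
Log2 difference on the log2(FPKM + 1) scale, si-CDCP1 minus si-NC, of the 9 tested genes (points) with the 95% interval of limma's moderated fit (lines), for all 6 libraries (circles) and without si-CDCP1 replicate 3 (squares). With all 6 libraries the intervals of Tpm1 and Vcl lie off 0; without that library Tpm1 remains off 0, at 0.14, and Srf, Tpm2 and Smtn change sign.

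The si-CDCP1 replicate 3 library held the highest or the lowest value of all 9 tested members, against 64.0% of all tested genes. It was the highest for Tpm1, Tpm4, Cald1 and Smtn, as in 34.0% of all tested genes, and the lowest for Srf, Mkl1, Mkl2, Tpm2 and Vcl, as in 30.0%. Srf, Mkl1 and Mkl2 thus lay on the low side in the same library in which 4 of the 6 cytoskeletal genes lay on the high side, while Myocd, on few reads, was the highest there, 135% above the mean of the other 5. Relative to the mean of the other 5 libraries, Tpm4 was 31.2% higher there, Tpm1 26.3%, Smtn 25.1% and Cald1 18.8%. The values of Srf, Mkl1, Vcl and Tpm2 lay at -18.7%, -17.2%, -17.2% and -14.9% and that of Mkl2 at -9.96%. The size of the deviation exceeded 13.0%, the median over all tested genes, in 8 of the 9 members. Acta2, smooth muscle actin, was at 64.2 FPKM in that library, against 42.0 and 34.4 FPKM in si-CDCP1 replicates 1 and 2 and 35.7, 36.9 and 39.6 FPKM in si-NC, while Myh11, Tagln and Cnn1 were near 0 there too. The mature smooth muscle markers did not move together there. Hspb6 was also highest in that library, at 11.1 FPKM. Lmod1, Synpo2 and Des, which were under the filter, were lowest there, at 0.503, 0.444 and 0.341 FPKM, and so was Tagln, on 1 read. What set that library apart was not tested.

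**Figure D4:**
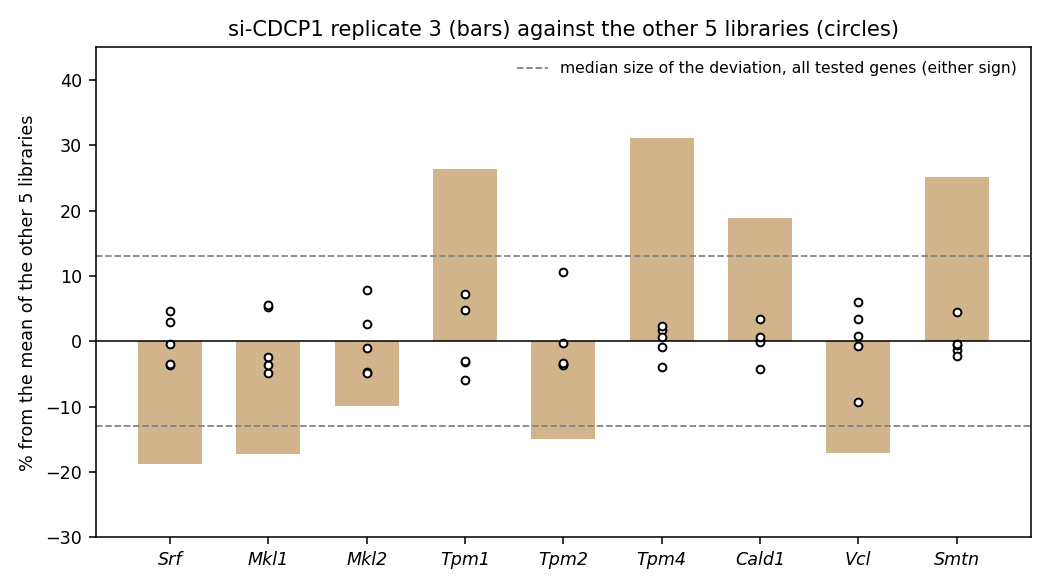
Deviation of si-CDCP1 replicate 3 from the mean of the other 5 libraries (bars, %) for the 9 tested genes, with those 5 libraries as circles and dashed lines at 13.0% either side of 0, the median size of the deviation over all 12080 tested genes. Every bar reaches beyond all 5 circles of its gene, from -18.7% for Srf to 31.2% for Tpm4.

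The spread was wider among si-CDCP1 libraries in all 9 tested members, with a coefficient of variation of 6.62% to 16.1% in si-CDCP1 and 1.70% to 6.44% in si-NC. This rests on si-CDCP1 replicate 3: between si-CDCP1 replicates 1 and 2 alone the coefficient of variation was 0.599% to 9.56%, and wider than in si-NC in 2 of the 9 members, Tpm2 and Vcl. The share of all tested genes with a wider spread in si-CDCP1 was not counted. Replicate 3 was the highest or lowest library in 64.0% of them, which is a different measure from the coefficient of variation. Whether the wider spread is particular to the members was therefore not tested. The 9 genes had between 573 and 8215 reads in a library, and counting error alone gives between 1.18% for Tpm1 and 3.91% for Smtn at the si-NC depth. In order of level per length, the si-NC means ran from Tpm4 (156 FPKM) through Tpm1 (61.7), Tpm2 (22.8), Mkl1 (22.1), Vcl (20.3), Srf (18.1), Cald1 (15.3), Smtn (8.26) and Mkl2 (6.25) to Myocd (0.192). Among neighbours in this order only Tpm2 and Mkl1 had overlapping si-NC libraries, while in si-CDCP1 the libraries of Tpm2 and Mkl1, Mkl1 and Vcl, Vcl and Srf, and Srf and Cald1 overlapped. The genomic spans of Vcl and Ap3m1, on opposite strands, share 2235 bases, and those of Tpm4 and the antisense Gm16091 share 5542. These spans include introns, and the counted length of Tpm4 is only 2203 bases. Where strand was not used in counting, reads from any exon stretch that such a pair shares cannot be told apart. The overlap of exons was not determined. Ap3m1 averaged 11.2 ± 0.635 FPKM in si-CDCP1 and 10.3 ± 0.160 FPKM in si-NC (SD, n = 3 each), and Gm16091 averaged 2.27 ± 0.862 FPKM in si-CDCP1 and 2.80 ± 0.420 FPKM in si-NC.

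Of 26 further cytoskeletal targets of SRF and its actin-linked coactivators, 16 were tested and 0 passed in either direction, with 9 positive and 7 negative log2 differences and a median of 0.03, or -0.02 without si-CDCP1 replicate 3, against 0.01 over all tested genes with and without it. Fhl1, a LIM-domain protein of muscle and stress fibres, was at 64.8, 62.2 and 65.1 FPKM in si-CDCP1, against 58.8, 57.7 and 58.0 FPKM in si-NC (log2 difference 0.14, limma BH-adjusted p = 0.298, and 0.12 without si-CDCP1 replicate 3). Myh9, the heavy chain of non-muscle myosin, was at 109, 104 and 102 FPKM in si-CDCP1, against 109.6, 120.4 and 112 FPKM in si-NC (log2 difference -0.12, limma adjusted p = 0.356, and -0.10 without that library). The groups did not overlap for either gene, which differed in opposite directions. Such an order was seen in 14.4% of all tested genes on the higher side and 10.6% on the lower side. Both genes were named for having the smallest p in their list. The si-CDCP1 replicate 3 library held the highest or lowest value of 15 of the 16 genes, against 64.0% of all tested genes.

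Of 12 immediate early SRF targets, which respond within minutes to growth signals, 9 were tested and 0 passed in either direction, with 3 positive and 6 negative log2 differences and a median of -0.14, or -0.07 without si-CDCP1 replicate 3 and -0.04 without si-NC replicate 1. Egr1, a zinc finger factor induced through SRF, was at 20.0, 18.2 and 22.2 FPKM in si-CDCP1, against 24.9, 27.5 and 22.6 FPKM in si-NC. All si-CDCP1 libraries lay below all si-NC libraries, by little for replicate 3 (log2 difference -0.30, SE 0.094, limma BH-adjusted p = 0.298, and -0.37 without replicate 3). This order was seen in 10.6% of all tested genes, and in 16.2% without si-CDCP1 replicate 3. Egr1 was named for having the smallest p in this list. Voom without si-CDCP1 replicate 3 called Egr1 lower (BH-adjusted p = 0.00551, with 1.06% of genes called lower). Limma's library weights on all 6 libraries did so too (adjusted p = 0.0263, with 2.54% of genes called lower). Over the 20 settings the adjusted p ranged from 0.00551 to 0.645. Ctgf, a matricellular protein gene under SRF and YAP control, was at 10.1, 8.81 and 7.75 FPKM in si-CDCP1, against 12.2, 11.6 and 9.95 FPKM in si-NC (log2 difference -0.31, SE 0.11, limma adjusted p = 0.316, and -0.22 without si-CDCP1 replicate 3). Its groups overlapped through si-CDCP1 replicate 1.

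Of 15 partners of the members at actin filaments and adhesions, 11 were tested and 0 passed in either direction, with 4 positive and 7 negative log2 differences and a median of -0.0043, or -0.01 without si-CDCP1 replicate 3 and -0.07 without si-NC replicate 1. Tln1, which encodes talin, the integrin-binding partner of vinculin, was at 59.2, 57.0 and 63.1 FPKM in si-CDCP1, against 63.1, 65.9 and 62.9 FPKM in si-NC. The first 2 si-CDCP1 libraries lay below every si-NC library and the third within their range (log2 difference -0.10, SE 0.054, limma BH-adjusted p = 0.425, and -0.14 without si-CDCP1 replicate 3). The first 2 si-CDCP1 libraries were below every si-NC library in 16.2% of all tested genes. Voom without si-CDCP1 replicate 3 called Tln1 lower (BH-adjusted p = 0.0373, with 1.06% of genes called lower). Limma's library weights, smallest for that library, did so too (adjusted p = 0.0401, with 2.54% of genes called lower). Sorbs3, which encodes the vinculin-binding protein vinexin, was at 9.36, 8.99 and 9.25 FPKM in si-CDCP1, against 10.1, 11.0 and 9.46 FPKM in si-NC (log2 difference -0.13, SE 0.064, limma adjusted p = 0.392, and -0.13 without si-CDCP1 replicate 3).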

How the data were processed

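The authors deposited 1 table of FPKM for 6 RNA-seq libraries with mouse Ensembl identifiers, coordinates and gene lengths, per the file headers, on the build mm10 per the submitters' processing notes. No source used here names the aligner, the counter or the strand setting. Libraries were made with a SMARTER mRNA kit, per the labels' protocols. Each FPKM above 0 times gene length was a whole multiple of 1 step per library (100.0% within 0.01 of a whole read). This gave back reads. Listed reads were 98.4% to 104% of the totals implied by the steps, and this percentage differed by group. Every si-NC library was at 98.4%. In the knockdown group it was 99.9% for replicate 1, 99.9% for replicate 2 and 104% for replicate 3, the library that stood apart. The cause of this split was not tested. Genes averaging 1 FPKM or more were tested with limma 3.58.1 (R 4.3.3) on log2(FPKM + 1), with an intensity trend, two-sided, without a block, and with BH adjustment over all genes tested. This scale understates the change of low genes. Myocd, the tropomyosin shares and the Mkl1 to Mkl2 ratio were tested by exact permutation (scipy 1.17.1). Groups follow the sample titles. The same fit was tested on simulated data, in which no library was made to stand apart as si-CDCP1 replicate 3 does here. The named genes are the 10 members, Tpm3, Cdcp1 and, from each of 3 further lists, the 2 genes with the smallest p where none passed; Acta2 and other markers, Tpm3-rs7 and overlapping genes were added. A further list is not reported here. Members and lists were chosen with earlier results of these data known. No pair of replicates agreed within sampling noise (chi-square per degree of freedom at least 2.98). No promoter or protein sequence was used here. The Myocd intervals and floors cover counting error only; limma's intervals cover the spread between libraries.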

Additional observations from a re-analysis of the deposited data

How the results depend on the processing

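The number of genes called over all tested genes was 0 with all 6 libraries. It was 7 with no filter, 4 with a mean of at least 5 FPKM, 1 with median log2 ratio scaling, 2 with quantile normalisation, 1 with equal FPKM sums, 865 with library weights, 5 in voom on recovered reads, 493 in voom without si-CDCP1 replicate 3, 3 with the length trend removed and 13 with that trend and si-CDCP1 replicate 3 removed. Leaving out 1 library at a time gave 0 to 1 called genes, and 0 members. Of the members, 2 (Tpm1 and Vcl) were called with library weights, which gave si-CDCP1 replicate 2 a weight of 5.11 and replicate 3 one of 0.165, and 1 (Tpm1) in voom without si-CDCP1 replicate 3; the cause was not tested. At an unadjusted p under 0.05 the split was 1080 higher and 642 lower as deposited, and 537 higher and 1301 lower with equal FPKM sums. The replicate block, tried because both groups carry numbers 1 to 3, called 1 gene and no member, and gave the Mkl1 to Mkl2 ratio the same difference of -0.09; deviations of same-numbered libraries had correlations of -0.02, 0.03 and 0.02, so the numbers did not pair them, and si-CDCP1 replicate 1 correlated best with si-NC replicate 2.

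Over single libraries left out, list medians ran from -0.02 to 0.06 for the further cytoskeletal targets, from -0.20 to -0.04 for the immediate early targets and from -0.07 to -0.0066 for the partners. Direction held in every setting for Tpm1, Vcl, Mkl1 (-0.20 to -0.07) and Cald1 (0.04 to 0.16), and for Tpm3, Fhl1, Myh9, Egr1, Ctgf, Sorbs3 and Tln1. With si-CDCP1 replicate 3 left out, Srf turned to a log2 difference of 0.047 (0.053 in voom, 0.038 with the length trend removed, and 0.017 with library weights on all libraries), and single libraries left out gave -0.125 to 0.047. Likewise Tpm2 turned to 0.079 (0.084 in voom, 0.048 with the length trend removed; -0.102 to 0.079 over single libraries left out) and Smtn to -0.019 (-0.022 in voom, -0.026 with the length trend removed, and -0.0097 with library weights on all libraries; -0.019 to 0.135 over single libraries left out). With the length trend and that library both removed, Mkl2 was at 0.00038 and Tpm4 at -0.032. Tpm2 was at 0.0042 without si-NC replicate 3. Egr1 and Tln1 passed with library weights and in voom without si-CDCP1 replicate 3. The Tpm2 share difference was 0.29 percentage points without si-CDCP1 replicate 3, that of Tpm4 was -0.83 points without it and -0.53 points without Tpm3, and the Myocd difference was -0.0127 FPKM without si-CDCP1 replicate 3. Over all single libraries left out, the differences ran from 1.37 to 1.98 points for the Tpm1 share, from -1.29 to 0.29 for Tpm2, from -2.14 to -1.21 for Tpm3 and from -0.83 to 1.56 for Tpm4, from -0.12 to -0.06 (log2) for the Mkl1 to Mkl2 ratio and from -0.0127 to 0.145 FPKM for Myocd. By reads not divided by length the Tpm1 share differed by 2.87 points. With 3 libraries a group, exact tests of single values cannot pass the threshold at any depth.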
